A study of Homo sapiens with 3 samples.

Results

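The genes described here are 8 noncoding RNA genes whose introns carry small nucleolar RNAs, GAS5, SNHG1, SNHG3, SNHG5, SNHG6, SNHG7, SNHG8 and SNHG12. They were taken by name from the 23284 genes with a value in each library, and all 8 were found. RNA-seq was carried out on 293T cells (HEK293T), a human embryonic kidney cell line, in which dCas9-VP64 was transiently expressed. dCas9-VP64 is a Cas9 that binds DNA without cutting it, fused to a transcriptional activator, and it was present in all 3 groups, which differed only in the guide vector: a mock sgRNA, sgL1ASP #1 or sgL1ASP #3. Both sgL1ASP guides were designed against the antisense promoter of the LINE-1 retrotransposon, so the comparison asks how the transcriptome responds when this promoter is targeted. There was 1 library per group, and the share of cells that took up the vectors is not known here, so the differences below are described without a test.

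The host genes belong to an unusual class in which the intron, not the spliced exon, holds the conserved product. When the host transcript is spliced, the excised intron is trimmed to a small nucleolar RNA (snoRNA) that assembles with core proteins and works in the nucleolus. Box C/D snoRNAs pair with ribosomal RNA and direct fibrillarin to methylate it on the ribose, while box H/ACA snoRNAs direct dyskerin to turn uridine into pseudouridine. The spliced exons are capped and polyadenylated. Many of these hosts start with a pyrimidine tract like that of ribosomal protein mRNAs and are removed by nonsense-mediated decay, so the level of a host RNA need not follow the level of its snoRNAs.

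The annotated start of 7 hosts is shown to let the pyrimidine tract be seen. Each line runs from 20 bases before to 40 bases from the start of the gene in the RefSeq table on GRCh38.p14, and the longest run of C and T that begins within 5 bases of the start is in capitals.
GAS5: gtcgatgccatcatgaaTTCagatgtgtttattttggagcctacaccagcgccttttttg
SNHG1: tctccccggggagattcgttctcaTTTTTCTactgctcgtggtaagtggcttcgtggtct
SNHG3: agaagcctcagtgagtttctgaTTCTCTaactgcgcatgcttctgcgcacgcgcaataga
SNHG5: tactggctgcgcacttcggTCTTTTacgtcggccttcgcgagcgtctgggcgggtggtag
SNHG7: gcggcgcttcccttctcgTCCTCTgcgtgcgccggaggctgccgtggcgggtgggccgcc
SNHG8: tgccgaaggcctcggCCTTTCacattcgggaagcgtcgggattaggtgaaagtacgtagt
SNHG12: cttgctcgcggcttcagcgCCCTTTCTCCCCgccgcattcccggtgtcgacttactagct

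A run of 6 or more pyrimidines was found in 6 of these 7 windows and in 14.9% of the 35116 promoters in the table. SNHG12 had the longest, 12 bases, and it was the only 1 of the 7 with at least 10, a length found in 3.59% of all promoters. The GAS5 window held a run of 3 bases. This does not show that GAS5 lacks the tract, since only the start shown above was searched. The G and C content of the 300-base windows around the 7 starts ranged from 37.7% for GAS5 to 75.3% for SNHG7, against a median of 58.7% over all promoters. These letters describe the annotated starts, and the start used in these cells was not measured.

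Small nucleolar RNAs lying in an intron of their host in the annotation used here (GENCODE 44 lifted to GRCh37, the build also called hg19) are shown for 2 hosts, 1 that gave no signal and 1 that did. The capitals mark the first GATG, the core of the C box, and the last CTGA, the D box, which pair to form the site where the core proteins bind.
SNORD78: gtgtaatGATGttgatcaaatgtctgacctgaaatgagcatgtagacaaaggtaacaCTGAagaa
SNORD99: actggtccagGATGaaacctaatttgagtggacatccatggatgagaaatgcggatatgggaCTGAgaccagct

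SNORD78 is 65 bases long and lies at chr1:173834760-173834824 on the minus strand, in intron 6 of the 12-exon GAS5 transcript. SNORD99 is 74 bases long and lies at chr1:28905261-28905334 on the minus strand, in intron 5 of the 6-exon SNHG12 transcript. GATG in the first 20 bases together with CTGA in the last 20 was found in 54.7% of the 267 annotated snoRNA transcripts of 60 to 80 bases. Their lengths bear on the values that follow, since the reads were 75 bases long.

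The libraries were of similar size. Depth was estimated from genes with 1 annotated transcript at 1.04e+07 reads for mock, 1.03e+07 for sgL1ASP #1 and 8.7e+06 for sgL1ASP #3. The values are FPKM, which scale the fragments of a gene by its exon length and by the size of the library, so levels of different genes are compared per length. Of 8 markers of the HEK293T line, 7 had FPKM of at least 1 in all 3 libraries, and PAX2 was below 1. The summed FPKM of the 8 markers was 966 to 1061. Both leukocyte markers and 2 of 3 fibroblast markers were at 0 in all 3 libraries. The summed FPKM was 1.99 to 2.55 for the fibroblast list, 0.0728 to 0.214 for the endothelial, 3.64 to 5.85 for the hepatocyte and 4.51 to 5.14 for the oligodendrocyte list. In bulk RNA, fewer cells expressing a gene and less RNA per cell cannot be told apart.

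All 8 host genes were among the strongly expressed genes of these cells, and their levels differed little between the libraries. SNHG8, host of SNORA24, was the highest, with FPKM 1215 with mock, 1249 with sgL1ASP #1 and 1175 with sgL1ASP #3. In every library it ranked within the top 0.275% of the 23284 genes. SNHG12, host of SNORD99 and of 3 box H/ACA snoRNAs, was the lowest of the 8, with FPKM 91.9, 95.5 and 85.4 in the same order, within the top 4.43%. The highest host exceeded the lowest 13.2-fold in mock, 13.1-fold in sgL1ASP #1 and 13.8-fold in sgL1ASP #3. The spread among the hosts was therefore far wider than the spread of any 1 host across the libraries, where the highest value exceeded the lowest 1.03-fold (SNHG1) to 1.14-fold (SNHG6).

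Between these ends the hosts formed groups of near levels. SNHG1, SNHG6 and SNHG5 followed SNHG8. SNHG1 (chr11:62619450-62623425, minus strand), the host of SNORD22 and of SNORD25 to SNORD31, had FPKM 507.9 with mock, 518 with sgL1ASP #1 and 505 with sgL1ASP #3. It varied least of the 8. SNHG6 (chr8:67832796-67838633, minus strand), the host of SNORD87, had FPKM 454 with mock, 519 with sgL1ASP #1 and 459 with sgL1ASP #3. SNHG5 (chr6:86360209-86388650, minus strand), the host of SNORD50A and SNORD50B, had FPKM 434 with mock, 493 with sgL1ASP #1 and 459 with sgL1ASP #3. Their order was not stable: SNHG6 was above SNHG1 in sgL1ASP #1 and below it in the other libraries, and SNHG5 and SNHG6 were level in sgL1ASP #3.

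SNHG7 and GAS5 came next and also changed places. SNHG7 (chr9:139615818-139622636, minus strand), the host of SNORA17 and SNORA43, had FPKM 358 with mock, 378 with sgL1ASP #1 and 348 with sgL1ASP #3. GAS5 (chr1:173827697-173838020, minus strand), named for its accumulation in growth-arrested cells and the host of the most snoRNAs among the 8, had FPKM 351 with mock, 353 with sgL1ASP #1 and 373 with sgL1ASP #3. GAS5 was below SNHG7 in mock and sgL1ASP #1 and above it in sgL1ASP #3. SNHG3 (chr1:28832492-28837404, plus strand) stood apart from these at FPKM 149.8 with mock, 136 with sgL1ASP #1 and 147 with sgL1ASP #3. SNHG8 (chr4:119199858-119206471, plus strand), SNHG3 and SNHG12 (chr1:28905050-28909644, minus strand) kept their places in all 3 libraries.

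With sgL1ASP #1, no host gene changed by more than 1.5-fold against mock (0 of 8). Among all genes with mean FPKM of at least 1, 3.23% passed 1.5-fold. Among genes with mean FPKM of at least 50, a level nearer to that of the hosts, 1.37% did. The median log2 change of the 8 genes was 0.05, beside 0.00 over all 12830 genes with mean FPKM of at least 1. SNHG6 had the highest value, 0.19 on the log2 scale, followed by SNHG5 at 0.18. SNHG7 was at 0.08, SNHG12 at 0.05, SNHG8 at 0.04, SNHG1 at 0.03 and GAS5 at 0.01. SNHG3 was the only host below mock, at -0.14. As deposited, 7 of the 8 values were above mock, and 2 of 8 (SNHG5 and SNHG6) after each library was rescaled to the same sum of FPKM.

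The genes with mean FPKM of at least 50 give the range in which most strongly expressed genes moved between the same libraries. Their 5% to 95% range for sgL1ASP #1 against mock ran from -0.13 to 0.21 on the log2 scale. The values of 7 hosts lay inside it, and SNHG3 lay just below its lower end. The median absolute log2 change of these 1934 genes was 0.06, and 59.7% of them were above mock. This range mixes counting error, differences between cultures and any response, which cannot be told apart with 1 library per group.

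With sgL1ASP #3, again 0 of 8 host genes passed 1.5-fold against mock. The background was 3.48% of genes with mean FPKM of at least 1 and 1.32% of those with at least 50. The median log2 change of the hosts was -0.02, beside 0.00 over all genes. GAS5 had the highest value, 0.09, followed by SNHG5 at 0.08 and SNHG6 at 0.01. SNHG1 was at -0.01, SNHG3 at -0.02, SNHG7 at -0.04, SNHG8 at -0.05 and SNHG12 at -0.11. Of genes with mean FPKM of at least 50, 60.3% lay above mock as deposited. Of the 8 hosts, 3 lay above mock as deposited, and 0 after rescaling to the same sum. All 8 lay within the 5% to 95% range of genes with mean FPKM of at least 50, which ran from -0.13 to 0.20.

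**Figure D1:**
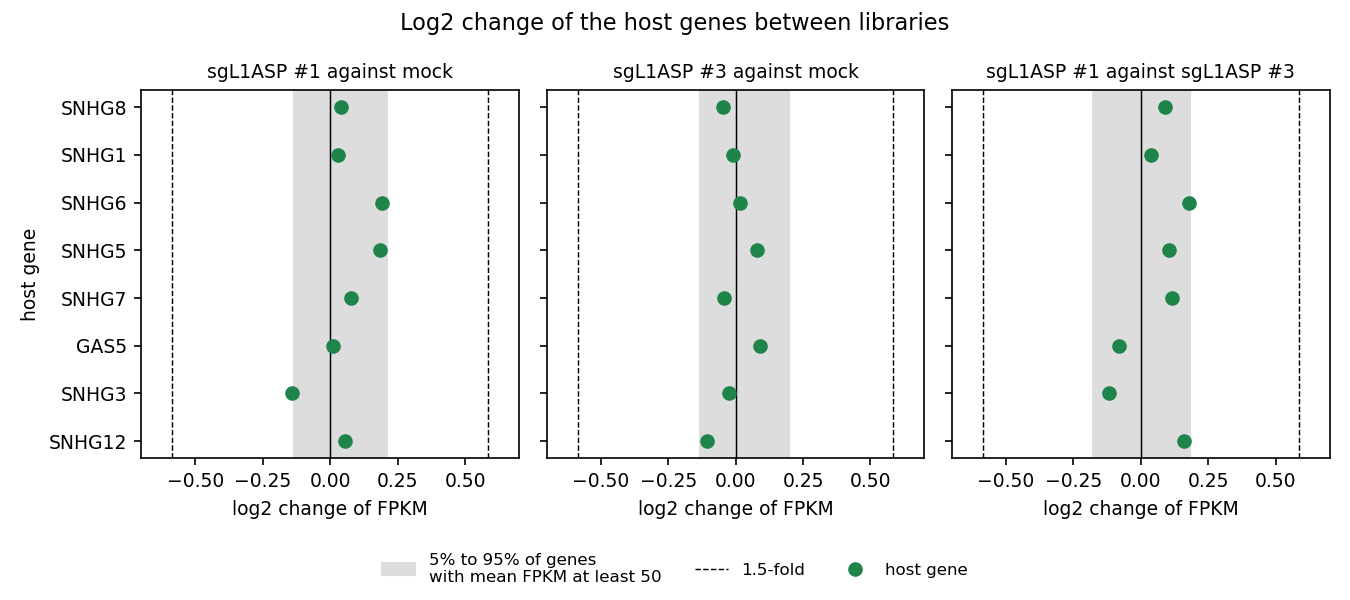
Log2 change of FPKM (x axis, pseudocount 0.1) of each host gene (y axis, ordered by level in mock) for the 3 pairs of libraries. The grey band holds the middle 90% of genes with mean FPKM of at least 50 and the dashed lines mark 1.5-fold. All points lie inside the dashed lines, with SNHG3 at -0.14 just outside the band for sgL1ASP #1 against mock.

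The guides were also compared with each other. Between sgL1ASP #1 and sgL1ASP #3, 0 of 8 hosts passed 1.5-fold, against 3.34% of genes with mean FPKM of at least 1 and 1.54% of those with at least 50. The median log2 difference was 0.10 toward sgL1ASP #1, beside 0.00 over all genes. SNHG6 was highest at 0.18, SNHG12 was at 0.16, SNHG7 at 0.12, SNHG5 at 0.10, SNHG8 at 0.09 and SNHG1 at 0.04. GAS5 was at -0.08 and SNHG3 at -0.12. The 6 to 2 split held under each rescaling that was tried. All 8 values lay inside the 5% to 95% range of genes with mean FPKM of at least 50, from -0.18 to 0.18.

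The order of the libraries differed among the hosts. For 4 of them (SNHG1, SNHG7, SNHG8 and SNHG12) the value was lowest in sgL1ASP #3 and highest in sgL1ASP #1, with mock between. For SNHG5 and SNHG6 it was lowest in mock and highest in sgL1ASP #1. GAS5 was lowest in mock and highest in sgL1ASP #3, and SNHG3 was lowest in sgL1ASP #1 and highest in mock. The comparisons share libraries, so these orders are not separate pieces of evidence.

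Some hosts share their locus with another gene. SNHG3 lies inside RCC1, which encodes a chromatin-bound exchange factor for the GTPase Ran, on the same strand, so reads of shared exons can be assigned to either. RCC1 had FPKM 175.7 with mock, 169.7 with sgL1ASP #1 and 172.4 with sgL1ASP #3. Its log2 change was -0.05 with sgL1ASP #1 and -0.03 with sgL1ASP #3. The summed FPKM of SNHG3 and RCC1 changed by -0.09 and -0.03 on the log2 scale. A sum of FPKM does not pool reads. How far the value of -0.14 for SNHG3 depends on the assignment of shared reads was not tested. GAS5 overlaps ZBTB37, SNHG8 overlaps PRSS12 and SNHG12 overlaps TRNAU1AP on opposite strands, and the counting used strand. TRNAU1AP had FPKM 21.4 to 23.4. PRSS12 had 1.15 to 2.02 and ZBTB37 0.274 to 0.922, all far below their host neighbours.

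The small RNA genes carried by the hosts behaved very differently from the hosts. Of 30 such genes listed for the 8 hosts, 28 had values. SNORA73A and SNORA73B of SNHG3 were not analysed here. FPKM was 0 in every library for 15 of the 28 and above 0 in 1 or more libraries for 13. The mock library had values above 0 for 8 of them, the sgL1ASP #1 library for 9 and the sgL1ASP #3 library for 11, and 6 genes were above 0 in all 3. By host, signal was seen for 2 of 10 genes of GAS5, 3 of 8 of SNHG1, 0 of 2 of SNHG5, 1 of 1 of SNHG6, 2 of 2 of SNHG7, 1 of 1 of SNHG8 and 4 of 4 of SNHG12.

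Presence followed gene length. The 12 hosted genes shorter than a 75-base read were all at 0 in every library, among them SNORD78 of GAS5 (length 65 bases) and SNORD44 (61 bases). Of the 16 that were at least as long as a read, 13 were above 0, the exceptions being SNORD47 and SNORD81 of GAS5 (77 bases each) and SNORD50A of SNHG5 (75 bases). The lengths are those of RefSeq, which gives SNORD99 80 bases where the annotation above gives 74. Over all snoRNA genes with a length, 0 of 100 shorter than a read and 113 of 264 (42.8%) at least as long were above 0. All 6 hosted box H/ACA genes, which are the longer class, were above 0, and 7 of the 22 box C/D genes were. A listed 0 for the shorter genes therefore does not show that the snoRNA is absent. The library kit selects RNA with a poly(A) tail, which mature snoRNAs lack, and whether the reads came from mature snoRNAs, introns or precursors was not tested.

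The same length dependence set the size of the values. Genes of equal length had FPKM in whole steps, which gave the value of 1 read. In mock, 1 read corresponded to FPKM 10435 for a gene of 75 bases, 6220 for 76 bases, 1683 for 80 bases, 1337 for 81 bases, 30.5 for 126 bases and 22.2 for 134 bases. At lengths with such a step, 94.9% of the 176 snoRNA values above 0 were whole numbers of reads within 0.5%. The 176 include the snoRNA values that set a step, which are whole by definition, so this share is not an independent check. FPKM of these genes can therefore stand far above that of the host from a few reads.

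SNORD28 of SNHG1, a guide for methylation of the small-subunit ribosomal RNA, shows this most clearly. Its FPKM was 0 with mock, 21143 with sgL1ASP #1 and 12557 with sgL1ASP #3, where SNHG1 itself was between 505 and 518. In reads this was 0, 2 and 1. SNORD26, of the same host and the same length of 75 bases, had FPKM 0, 0 and 12557, or 0, 0 and 1 read. At this length 2 values set the step, the 12557 of SNORD26 and of SNORD28, so these are 1 read by definition. SNORD99 of SNHG12 had FPKM 0, 0 and 6074, or 0, 0 and 3 reads, while SNHG12 was between 85.4 and 95.5. SNORD87 of SNHG6 had FPKM 6220, 0 and 0, or 1, 0 and 0 reads. The 6220 of SNORD87 is among the 2 values that set the step at 76 bases. SNORD79 of GAS5 had FPKM 0, 1355 and 1609, or 0, 1 and 1 read. Scaled by depth, the 1355 and 1609 of SNORD79 set the step at 81 bases, so these too are 1 read by definition. None of these 5 genes had more than 3 reads in any library, the exact 95% intervals of their counts overlap, and no fold is given.

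The hosted genes with most reads were SNORA61 of SNHG12 and SNORD22 of SNHG1. SNORA61, a box H/ACA guide for the large-subunit ribosomal RNA, had FPKM 543 with mock, 734 with sgL1ASP #1 and 685 with sgL1ASP #3, or 21, 28 and 22 reads. Its ratio to mock was 1.35 with sgL1ASP #1, with an exact 95% interval from 0.74 to 2.50, and 1.26 with sgL1ASP #3, from 0.661 to 2.41. SNORD22 had FPKM 488, 433 and 624, or 16, 14 and 17 reads. Its ratio to mock was 0.886 (0.401 to 1.94) with sgL1ASP #1 and 1.28 (0.607 to 2.70) with sgL1ASP #3. These intervals cover counting error only, and all 4 include 1. The FPKM ratios of their hosts, 1.04 and 0.929 for SNHG12 and 1.02 and 0.993 for SNHG1, lie within them too.

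SNORD76 of GAS5 had the largest ratio of FPKM among the hosted genes above 0 in all 3 libraries. Its FPKM was 2675 with mock, 9483 with sgL1ASP #1 and 9655 with sgL1ASP #3, or 2, 7 and 6 reads. These reads rest on the step at 81 bases, which 2 values of SNORD79 set. The ratio to mock was 3.55 with sgL1ASP #1 and 3.61 with sgL1ASP #3, with exact 95% intervals from 0.675 to 34.98 and from 0.646 to 36.6. Both guides gave more reads than mock, but the intervals include 1, and GAS5 itself was within 0.09 of mock on the log2 scale.

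The remaining hosted genes had few reads or values that could not be read as whole numbers. SNORA24 of SNHG8 had FPKM 24.9, 50.4 and 29.9 in mock, sgL1ASP #1 and sgL1ASP #3, or 1, 2 and 1 read. SNORA16A of SNHG12 had FPKM 44.3, 22.4 and 26.7, or 2, 1 and 1 read. SNORA44 of SNHG12 had 47.8, 48.5 and 28.8, or 2, 2 and 1 read. The differences between these values are steps of a single read. The values of SNORA17 and SNORA43 of SNHG7 were not whole numbers of reads. SNORA17 had FPKM 50.1, 0 and 0 and SNORA43 had 0, 15.8 and 92.9. These are related genes, the values of both are uncertain, and whether they share reads with each other or with further copies was not tested.

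Counted by the 1.5-fold rule, the hosted genes nevertheless looked far more variable than the hosts. Of the 6 above 0 in both libraries, 3 passed 1.5-fold with sgL1ASP #1 against mock (SNORD76 and SNORA24 higher, SNORA16A lower), where 50.8% of all snoRNA genes above 0 in both libraries did. With sgL1ASP #3, 3 of 6 passed (SNORD76 higher, SNORA16A and SNORA44 lower), against a background of 58.9%. Between the guides 4 of 9 passed, against 58.6%. Read against these shares, the hosted genes passed no more often than snoRNA genes in general did in the same libraries.

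Summed over the 11 genes with whole reads, the hosted small RNAs had 45 reads with mock, 57 with sgL1ASP #1 and 54 with sgL1ASP #3. Allowing for depth, the ratio to mock was 1.28 with sgL1ASP #1 (exact 95% interval 0.853 to 1.94) and 1.44 with sgL1ASP #3 (0.954 to 2.19). Between the guides it was 0.889 (0.602 to 1.31). On the FPKM scale the same few reads weighed more. The FPKM of the 28 hosted genes summed to 10093 with mock, 33285 with sgL1ASP #1 and 43941 with sgL1ASP #3, while that of the 8 hosts summed to 3561, 3741 and 3551. The sum of FPKM over all genes was larger than in mock by 41546 with sgL1ASP #1 and by 53580 with sgL1ASP #3, and the 28 hosted genes made up 55.8% and 63.2% of these differences. The rescaling to the same sum, under which fewer hosts lay above mock, divides by these sums.

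Genes that share the arrangement or the machinery of the hosts were compared from lists. Of 14 other noncoding host genes 12 had values, and 0 of 12 passed 1.5-fold with either guide. SNHG18 was at 0 in all 3 libraries, so it could not pass. Among all genes with mean FPKM of at least 1, 3.23% passed with sgL1ASP #1 and 3.48% with sgL1ASP #3. These shares are also the background for the lists below. The median log2 change of the 12 was -0.03 with sgL1ASP #1 and 0.00 with sgL1ASP #3. As deposited, 5 of the 12 lay above mock with sgL1ASP #1 and 6 with sgL1ASP #3. After rescaling to the same sum, 3 and 2 did. ZFAS1, the antisense host of SNORD12 family snoRNAs, was the highest in both, with FPKM 335 with mock, 397 with sgL1ASP #1 and 381 with sgL1ASP #3 and log2 changes of 0.25 and 0.19. The lowest values were those of SNHG10 with sgL1ASP #1 (FPKM 45.4 in mock and 38.7, log2 change -0.23) and of SNHG9 with sgL1ASP #3 (412 in mock and 346, log2 change -0.25).

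The 32 protein-coding host genes, mostly ribosomal protein and translation factor genes that carry snoRNAs in their introns, also had 0 past 1.5-fold. With sgL1ASP #1 their median log2 change was 0.05 and 28 lay above mock as deposited, but 10 after rescaling to the same sum. The 28 include RPL21, which was near the floor at FPKM 0.0246 with mock and 0.0247 with sgL1ASP #1. With sgL1ASP #3 the median of the 32 was 0.04, and 21 lay above mock as deposited but 2 after that rescaling. Of all genes with mean FPKM of at least 50, 59.7% and 60.3% lay above mock as deposited. TAF1D, a subunit of the selectivity factor of RNA polymerase I, was highest (0.21) and CWF19L1 lowest (-0.14) with sgL1ASP #1, and RPL23A (0.16) and RPL17 (-0.10) with sgL1ASP #3.

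The 8 core proteins of snoRNA particles, such as fibrillarin and dyskerin, had 0 past 1.5-fold and medians of 0.02 with each guide. NHP2 (0.06) and NOP10 (-0.08) marked the ends with sgL1ASP #1, and NOP10 (0.10) and GAR1 (-0.12) with sgL1ASP #3. All of these belong to the box H/ACA particle. The 10 nonsense-mediated decay factors, which limit the exonic RNA of many hosts, also had 0 past 1.5-fold, with medians of 0.05 and -0.01. UPF3A, which binds the exon junction complex, was highest in both (0.22 and 0.14). SMG9, a partner of the kinase that phosphorylates UPF1, was lowest with sgL1ASP #1 (-0.42) and UPF2 was lowest with sgL1ASP #3 (-0.27).

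Among the 7223 genes with mean FPKM of at least 10, the 3 whose log2 changes lay nearest to the hosts' pair of medians (0.05 with sgL1ASP #1 and -0.02 with sgL1ASP #3) were MEAF6, a subunit of histone acetyltransferase complexes (FPKM 33.7, 34.8 and 33.3 in mock, sgL1ASP #1 and sgL1ASP #3), PIM3, a serine/threonine kinase (83.0, 85.9 and 82.0) and ZBTB8OS (35.5, 36.7 and 35.0). Within 0.05 of this pair lay 750 of the 7223 genes (10.4%), so nearness to it does not set these 3 apart.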

How the data were processed

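Per the submitters' processing notes and the methods, the authors sequenced stranded mRNA libraries as single reads of 75 bases and used SAMtools 0.1.19, Bowtie2 2.2.3 and TopHat2 2.0.13 to map them to hg19. They ran Cuffdiff (Cufflinks 2.2.1) in its strand-specific mode, and its FPKM per gene are the deposited values, used here as they are. The gene annotation was not given in the sources used here. Groups follow the labels. The members and lists were chosen with earlier results of these data known.

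Counts past 1.5-fold used ratios with no pseudocount. Log2 changes used FPKM + 0.1, which understates changes of low genes. Named are all hosts, hosted genes above 0, the highest and lowest of each other list (none held a gene past 1.5-fold) and the 3 genes nearest to the hosts' median pair.

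The value of 1 read came from FPKM of small RNA genes of equal length (75 to 150 bases), scaled by relative depth. It was the lowest value that at least 2 values shared. Lengths whose value exceeded that of a shorter length were dropped. Values within 0.5% of a whole number were called whole. Relative depth came from the most frequent ratio of FPKM to mock, over all genes above 0 and below 0.3 in both libraries. It was 0.987 for sgL1ASP #1 and 0.831 for sgL1ASP #3. Depth in reads came from genes with 1 transcript over 1000 bases, less an assumed fragment of 200 bases. Each value above 0 was turned into the library size at which it would be 1 read, and the most frequent size was taken. The rules for the value of 1 read and for relative depth were tested on simulated data, in which every value was a whole number of reads. That setting is easier than the real data, where some values were not whole. The rule that dropped lengths and the rule for depth in reads were not tested. Intervals are exact (95%, Poisson for counts, Clopper-Pearson for ratios) and cover counting error only; no ratio of reads was taken where both counts were 3 or fewer. Hosts have no interval, since the transcript lengths behind their FPKM are not known. Alternatives were other pseudocounts, scalings, thresholds and filters. The tools were matplotlib 3.10.9, SciPy 1.17.1, pandas 2.3.3, NumPy 2.4.6 and Python 3.11.15, and older names were matched through RefSeq.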

Additional observations from a re-analysis of the deposited data

How the results depend on the processing

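No paired analysis was possible because there is 1 library for each guide, and for the same reason no library could be left out. No host gene passed 1.5-fold under any alternative, nor the lower threshold that was tried. None of the 96 recomputed host changes shifted by more than 1.5-fold, but this count does not show stability. The scaling factors were close to each other and a pseudocount of 1 is small beside the FPKM of the hosts, so such a shift was out of reach. Signs did move: rescaling to the same sum of FPKM shifted the median of all genes by -0.09 for sgL1ASP #1 and -0.12 for sgL1ASP #3 against mock. Under every scaling 7 and 3 of 8 hosts lay above that median. Those counts were all but fixed by the choice, since dividing a library by a single number shifts all genes alike. Leaving snoRNA and miRNA genes out of the sum, an alternative chosen after seeing the data, left 4 and 2 of 8 above mock.

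The number of hosted small RNA genes past 1.5-fold, with a pseudocount of 1, was 8 and 10 for sgL1ASP #1 and sgL1ASP #3 against mock, and counting genes at 0 in 1 library, also chosen after seeing the data, gave 8 and 10 as well. Above 2-fold it was 1 for sgL1ASP #3 against mock and 1 between the guides. Limited to genes inside their host in the annotation it was 0 in all 3 comparisons, a count fixed by the choice, since neither of the 2 such genes was above 0 in both libraries of any comparison.

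The percent of all genes past 1.5-fold was 1.89 and 1.995 against mock with a pseudocount of 1. For sgL1ASP #1 against mock, sgL1ASP #3 against mock and between the guides in turn, it was 0.974, 0.991 and 1.05 above 2-fold, 11.9, 12.0 and 11.8 with no filter, and 0.671, 0.685 and 0.671 at mean FPKM of at least 10. Single reads limit the hosted genes, and single libraries limit every comparison.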
